A study of Mus musculus with 8 samples.

Results

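Spiral ganglion neuron transcripts were followed in bulk RNA of the mouse cochlea through 30 genes, all 30 of which were found by symbol among the 78317 genes of the deposited expression table. The genes were chosen by name, from the neuronal cytoskeleton, synaptic vesicles, RNA-binding proteins, transcription factors, surface and subtype genes and sodium channels. The tissue was the basilar membrane, which carries the hair cells and supporting cells of the cochlea, dissected at postnatal day 6. It was measured in 8 libraries of polyadenylated RNA, 4 titled hete and 4 titled homo. The genotype tag gives WT for the hete libraries and Dnajc17 cKO, a conditional knockout, for the homo libraries, so the labels give both a heterozygous and a wild-type name to the controls. The promoter driving the deletion, the deleted exons and the strain are not stated in the labels. No label ties a library to its own animal, and p-values therefore reflect only how these libraries vary, possibly for technical reasons.

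Spiral ganglion neurons are the bipolar cells that carry sound signals from hair cells to the brainstem. Their cell bodies lie in the bony core of the cochlea, and their peripheral neurites run into the sensory epithelium. Most are type I neurons, each contacting an inner hair cell, and a minority are type II neurons, which contact outer hair cells and are known for peripherin (Prph). Type I neurons mature into subtypes after birth, and Lypd1, Grm8, Pou4f1 and Runx1 are known as markers of the subtype called Ic. Several genes used as neuronal markers are also used by hair cells or their epithelium. From such textbook knowledge, 20 members were taken as neuron-restricted within the cochlea and 7 as shared with hair cells or the sensory epithelium (Snap25, Syt1, Syt2, Vamp1, Isl1, Neurod1 and Gata3). The other 3 are also known from non-neuronal cells (Gap43, Thy1 and Runx1). The classes rest on that knowledge, but the members and lists were chosen with earlier results of these data known. Within the neuron-restricted class, Prph, Scn8a and Lypd1 followed the other neuronal genes least, as given below.

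The promoters of 4 members are shown because these genes stand for the pair of patterns described below. Syn1 and Tubb3 followed the neuronal content of the library closely, and Syt1 and Isl1 followed it less closely. Each sequence is the 250 bases before a RefSeq start site on GRCm38.p6, 5′ to 3′ on the strand of the gene. The expression values came from GRCm39, and no coordinate was moved between the builds. Capitals mark letters related to the RE1 element, the bipartite site of REST, a repressor known for keeping neuronal genes off in other cells. The motifs searched on both strands were TTCAGCACC, the shorter CAGCACC that lies within it, and GGACAG. The windows are chrX:20920919-20921168 on the minus strand for Syn1, chr8:123411303-123411552 on the plus strand for Tubb3, chr10:109010976-109011225 on the minus strand for 1 of the 2 start sites of Syt1, and chr13:116309689-116309938 on the minus strand for Isl1.
Syn1: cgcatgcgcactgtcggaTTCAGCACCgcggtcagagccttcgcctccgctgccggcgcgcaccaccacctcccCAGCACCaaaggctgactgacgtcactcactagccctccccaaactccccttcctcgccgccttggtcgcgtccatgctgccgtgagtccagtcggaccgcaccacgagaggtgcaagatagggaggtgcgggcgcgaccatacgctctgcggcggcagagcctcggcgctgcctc
Tubb3: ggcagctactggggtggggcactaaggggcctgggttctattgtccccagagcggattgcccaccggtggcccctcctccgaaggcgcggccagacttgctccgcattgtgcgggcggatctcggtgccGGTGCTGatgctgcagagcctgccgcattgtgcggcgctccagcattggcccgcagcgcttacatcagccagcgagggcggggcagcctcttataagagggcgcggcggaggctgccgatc
Syt1: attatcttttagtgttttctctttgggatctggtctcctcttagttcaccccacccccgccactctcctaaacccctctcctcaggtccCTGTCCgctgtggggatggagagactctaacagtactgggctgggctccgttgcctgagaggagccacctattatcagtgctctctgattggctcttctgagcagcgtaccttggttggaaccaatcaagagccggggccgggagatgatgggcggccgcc
Isl1: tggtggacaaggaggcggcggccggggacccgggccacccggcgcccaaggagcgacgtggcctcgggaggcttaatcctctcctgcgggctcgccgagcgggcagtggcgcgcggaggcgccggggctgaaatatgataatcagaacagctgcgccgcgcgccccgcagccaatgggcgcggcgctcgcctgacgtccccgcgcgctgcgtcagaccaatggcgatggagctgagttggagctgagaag
In windows of 300 bases, which add the 50 bases after the start, the Syn1 promoter held TTCAGCACC at 232 bases before its start. That motif was in 0.371% of all 32851 promoter windows, and in 1 of the 34 windows that matched members (2.94%). Syn1 also held a further CAGCACC, outside that motif, at 176 bases before its start. Tubb3 held CAGCACC on the other strand at 121 bases before its start, with GGACAG on the other strand 12 bases after it. CAGCACC was in 7.14% of all windows and in 2 of the 34 windows that matched 23 of the 30 members (5.88%). GGACAG was in 22.2% of all windows and in 8 of the 34 (23.5%). Syt1 held GGACAG on the other strand at 161 bases before the start shown. The Isl1 window held none of the 3 motifs, nor did the window of the other Syt1 start. The shares say only which letters are in these windows.

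Most neuron-restricted transcripts differed more between libraries of a group than between the groups. Judged by the SD within either group, Scn8a, Syt1, Isl1 and Gap43 were exceptions among the members. Tubb3 (ENSMUSG00000062380), the neuronal beta-tubulin, had 14.01, 38.42, 30.39 and 25.62 TPM in hete, in order of replicate number from 1 to 4. In homo, in the same order, it had 26.3, 26.98, 17.92 and 44.32 TPM, and values are listed in this order throughout. TPM, or transcripts per 1000000, corrects for the length of the transcript and the size of the library. The lowest library was hete replicate 1 and the highest homo replicate 4, with the rest of both groups mixed between them. Nefh (ENSMUSG00000020396), the heavy neurofilament subunit of large axons, had 15.24, 44.63, 44.17 and 34.01 TPM in hete and 34.95, 31.42, 19.61 and 61.23 TPM in homo. Elavl4 (ENSMUSG00000028546), a neuronal RNA-binding protein of the Hu family, had 3.29, 8.8, 8.41 and 4.42 TPM in hete and 7.81, 6.31, 4.28 and 13.88 TPM in homo. All 3 genes had the same lowest and the same highest library. Of the 17 neuron-restricted members that were tested, hete replicate 1 was lowest for 12, homo replicate 4 was highest for 15, and both held for 11. The highest library exceeded the lowest by 1.56-fold to 4.73-fold, with a median of 3.16-fold. In a library of dissected tissue, fewer neurons in the sample, for whatever reason, and less RNA per neuron cannot be told apart.

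**Figure D1:**
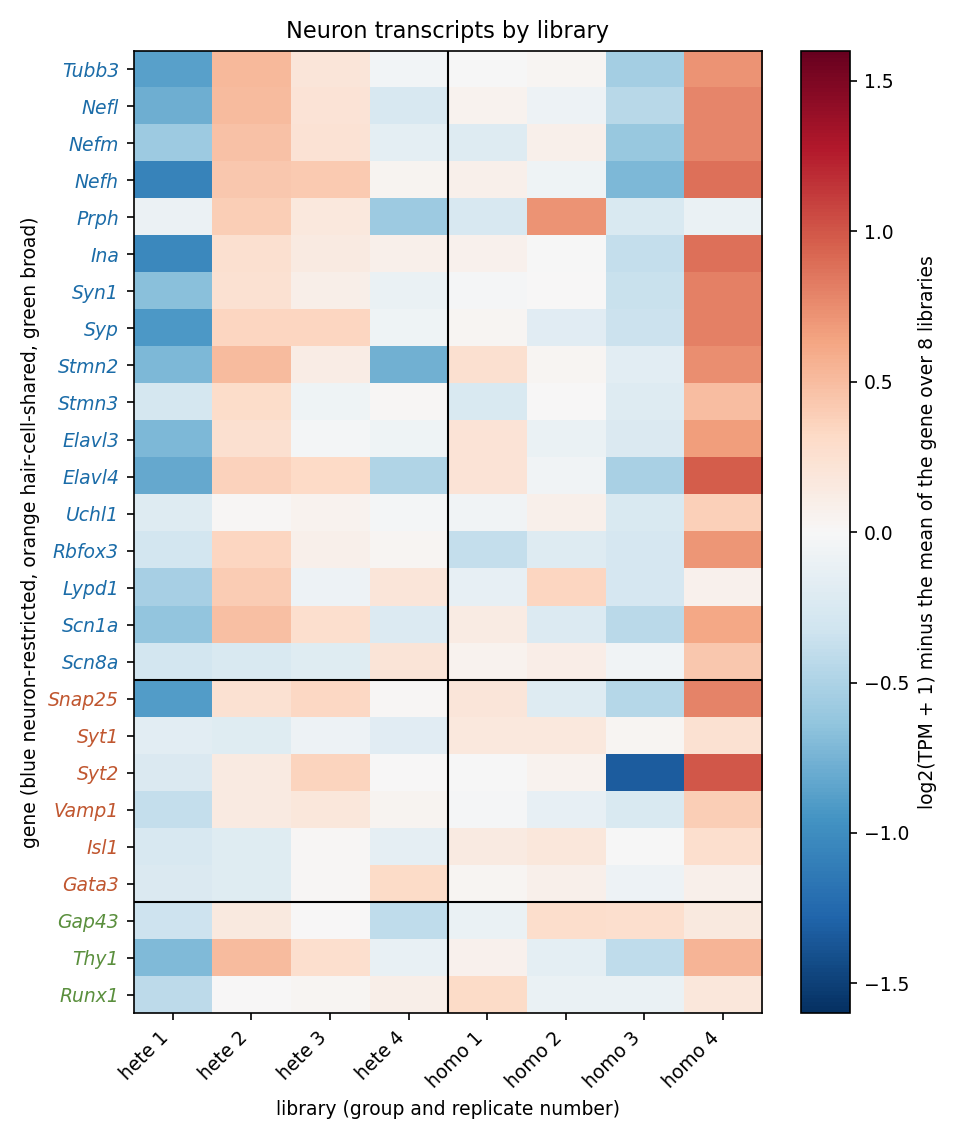
Each row is 1 of the 26 tested genes and each column 1 library, 4 hete on the left and 4 homo on the right. Colour gives log2(TPM + 1) minus the mean of the gene over the 8 libraries, and horizontal lines separate neuron-restricted (blue names), hair-cell-shared (orange) and broadly expressed (green) genes. Hete replicate 1 was lowest for 12 and homo replicate 4 highest for 15 of the 17 neuron-restricted genes, while Syt1 and Isl1 vary little.

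The level of other neuronal genes, none of them a member, was lowest and highest in the same libraries. Over 46 tested genes of that list, the mean of log2(TPM + 1) was 3.11, 3.75, 3.65 and 3.48 across the hete libraries and 3.57, 3.51, 3.31 and 3.98 across the homo libraries. The mean over the 17 neuron-restricted members was 3.31, 4.26, 4.06 and 3.80 in hete and 3.92, 3.96, 3.57 and 4.55 in homo. Markers of Schwann and satellite glia, the cells that wrap these neurons, had means of 4.88, 5.39, 5.31 and 5.25 in hete and 5.53, 5.26, 4.95 and 5.59 in homo. By this mean, the lowest library of all 3 lists was hete replicate 1 and the highest was homo replicate 4. Hair cell markers were lowest and highest in other libraries, at 3.71, 3.75, 3.82 and 4.06 in hete and 3.62, 3.72, 3.497 and 3.68 in homo.

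**Figure D2:**
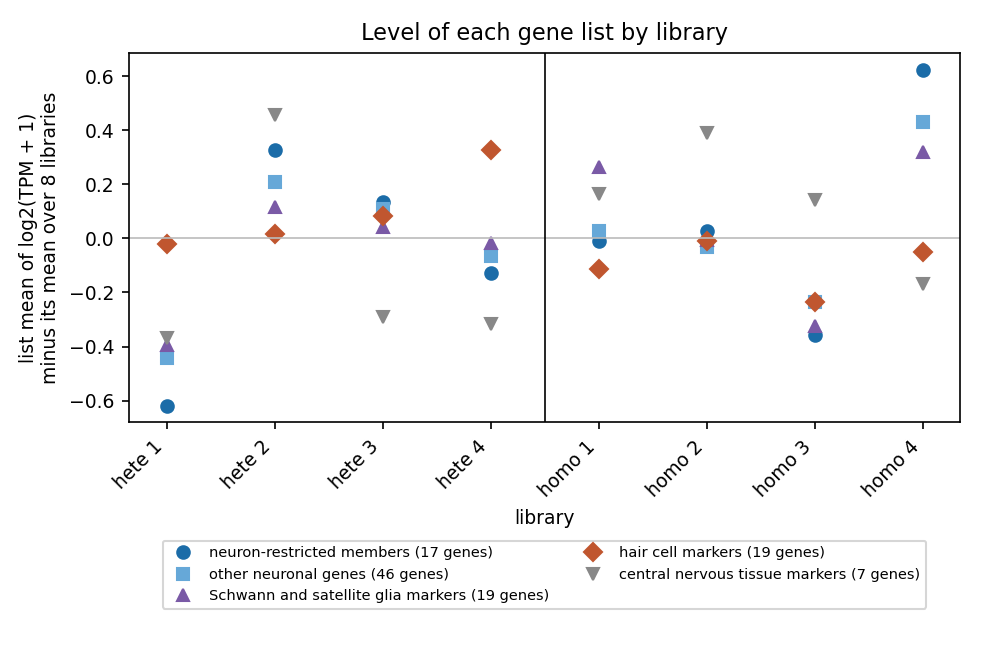
Points give the mean of log2(TPM + 1) of each gene list in each library, minus the mean of the list over the 8 libraries; the vertical line separates hete from homo. Neuron-restricted genes, other neuronal genes and glia markers are lowest in hete replicate 1 and highest in homo replicate 4, while hair cell markers are highest in hete replicate 4 and lowest in homo replicate 3.

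How closely each member followed the neuronal content of a library was measured as Pearson's r between its log2(TPM + 1) and the mean of the other neuronal genes over the 8 libraries. That list was not divided into restricted and shared genes as the members were. Not all of its genes had the extremes of the mean, and Ntrk2 was lowest in homo replicate 4, at 38.1 TPM. The 4 lists (other neuronal genes, hair cell, glia and central nervous tissue markers) and 26 members gave 104 such relations, and p was adjusted over all of them. Of the 17 neuron-restricted members, 10 had r above 0.9 and 14 had an adjusted p under 0.05. Relations with the list means were computed for members only, so these counts have no share over all tested genes beside them. The neurofilament gene Nefl had r = 0.991 (Spearman's rho 1.00, exact permutation test, two-sided, adjusted p = 0.00115 for r and 0.00258 for rho), and Tubb3 had r = 0.986 (rho 0.976, exact permutation test, adjusted p = 0.00115 and 0.0059). Without hete replicate 1 and homo replicate 4, the libraries farthest from the median, r was 0.981 for Nefl and 0.977 for Tubb3, and 9 of the 17 stayed above 0.9. Prph was the neuron-restricted member that followed least (r = 0.211, rho 0.262, exact permutation test, adjusted p = 0.837 and 0.723), followed by the sodium channel gene Scn8a (r = 0.523, rho 0.31, exact permutation test, adjusted p = 0.381 and 0.696) and Lypd1 (r = 0.637, rho 0.571, exact permutation test, adjusted p = 0.235 and 0.366). Without those 2 libraries r was 0.451 for Prph, -0.55 for Scn8a and 0.535 for Lypd1. With hair cell markers, r ran from -0.40 to 0.405 over the 17 members, and no member of any class had an adjusted p under 0.05 in the exact permutation test. With glia markers, 9 of the 17 had an adjusted p under 0.05. With markers of central nervous tissue none did, and that mean rested on the 7 of 15 listed genes that passed the filter described below.

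The members shared with hair cells fell into a mixed set by the same measure. Snap25 (ENSMUSG00000027273), a membrane protein of the vesicle fusion machinery, had 13.41, 30.75, 32.72 and 26.24 TPM in hete and 29.69, 22.27, 18.55 and 45.39 TPM in homo. It followed the other neuronal genes with r = 0.972 (rho 0.952, exact permutation test, adjusted p = 0.00234 and 0.0108; 0.888 without the 2 farthest libraries). Its fusion partner Vamp1 had r = 0.96 (rho 0.905, exact permutation test, adjusted p = 0.00408 and 0.0226; 0.864 without the same libraries). Syt1, Isl1 and Gata3 had r of 0.391, 0.555 and 0.293 (rho 0.262, 0.524 and 0.19, exact permutation test, adjusted p of r 0.615, 0.336 and 0.816, and of rho 0.723, 0.454 and 0.76), and their highest library exceeded the lowest by 1.37-fold, 1.44-fold and 1.45-fold. Without the 2 farthest libraries their r was -0.37, -0.26 and -0.32. Thy1, a surface protein of neurons and other cells, had r = 0.972 (rho 0.976, exact permutation test, adjusted p = 0.00115 and 0.0059; 0.983 without the 2 farthest libraries), while Gap43, a growth cone protein also made by Schwann cell precursors, had r = 0.399 (rho 0.262, exact permutation test, adjusted p = 0.608 and 0.723; -0.09 without them).

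No member passed the threshold between the groups. The fit was limma-trend on log2(TPM + 1) over the 17811 genes averaging 1 TPM or more, and a gene was called when its p, adjusted by Benjamini-Hochberg over all of them, was under 0.05. Of the 30 members 26 passed this filter, and 0 of the 26 were called, against 0.0112% of all tested genes (2 genes). At an unadjusted p under 0.05 there were 2 members, Syt1 and Isl1, both higher in homo, where 3.56% of all tested genes were higher at that p. None was lower at that p, against 2.49% of all tested genes. The log2 fold change, homo over hete, was above 0 for 24 of the 26, as it was for 56.3% of all tested genes, with a median of 0.12 against 0.02 over all tested genes. It was above 0 for 11 of the 26 without hete replicate 1, for 11 without homo replicate 4, and for 13 with the covariate described below. The standard errors of the 26 ran from 0.07 to 0.44 and their adjusted p from 0.465 to 1.00.

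Syt1 (ENSMUSG00000035864), a calcium sensor of synaptic vesicles, had 22.44, 21.94, 23.96 and 22.17 TPM in hete and 28.67, 28.62, 25.99 and 30.15 TPM in homo. The lowest homo library exceeded the highest hete library, as for 2.58% of all tested genes, and Syt1 was the only 1 of the 26 tested members without overlap. No member had every homo value below every hete value, as 1.41% of all tested genes did. The means were 22.6 ± 0.91 and 28.4 ± 1.73 TPM (SD, n = 4 each), with a log2 fold change of 0.31 (SE 0.07, 95% interval 0.16 to 0.47; limma-trend, adjusted p = 0.465, unadjusted rank 47 of 17811). Isl1 (ENSMUSG00000042258), a LIM-homeodomain transcription factor of sensory neurons and of the developing sensory epithelium, had 65.94, 68.62, 79.9 and 70.99 TPM in hete and 87.15, 89.56, 78.65 and 94.98 TPM in homo. Homo replicate 3 lay below hete replicate 3, and the other homo libraries lay above all hete libraries. The lowest library of Isl1 was hete replicate 1 and the highest homo replicate 4, as for Tubb3. The means were 71.4 ± 6.05 and 87.6 ± 6.80 TPM (SD, n = 4 each), with a log2 fold change of 0.29 (SE 0.08, 95% interval 0.11 to 0.47; limma-trend, adjusted p = 0.623). Neither gene passed the threshold adjusted over all genes tested. Both are known from sensory epithelium as well as neurons. Beside them, the summed level of 20 hair cell markers was 413 to 636 TPM in hete and 342 to 404 TPM in homo, and that of 15 supporting cell markers was 5555 to 5990 TPM in hete and 6364 to 6685 TPM in homo. Both separations depended on which abundant genes were in the sum. Without Ocm, the oncomodulin of outer hair cells, the other 19 hair cell markers summed to 293 to 358 TPM in hete and 282 to 314 TPM in homo, which overlap. Without the tectorin genes Tecta and Tectb, which encode proteins of the tectorial membrane, the other 13 supporting cell markers summed to 1100 to 1340 TPM in hete and 1062 to 1242 TPM in homo, which overlap as well. Without Tectb alone the supporting cell sums were still apart, at 1620 to 1708 TPM in hete and 1749 to 1898 TPM in homo. The most abundant of the other 13, S100a1, ran the other way, with means of 662 TPM in hete and 583 TPM in homo. Ocm, Tecta and Tectb were chosen after their values were seen. None of these markers was listed at 0 in any library, and their part in the values of Syt1 and Isl1 was not tested.

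**Figure D3:**
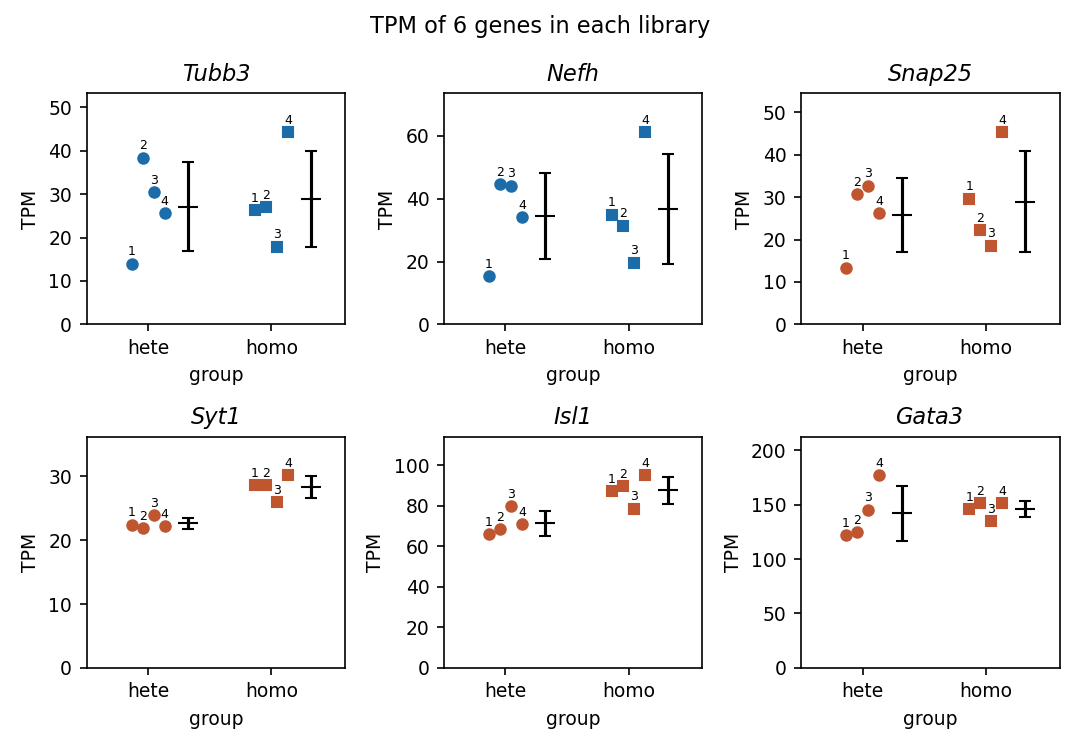
TPM of 6 genes in each library, with the replicate number above each point, hete as circles and homo as squares. The bar beside each group is its mean ± SD (n = 4), and every axis starts at 0. Tubb3, Nefh and Snap25 spread widely in both groups, Syt1 is higher in all 4 homo libraries (25.99 to 30.15 TPM) than in all 4 hete libraries (21.94 to 23.96 TPM), and Isl1 and Gata3 overlap.

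Among the cytoskeletal members, all 9 had a log2 fold change above 0, from 0.02 to 0.43, with standard errors of 0.14 to 0.44. Without hete replicate 1 only 3 of the 9 stood above 0, and 4 of the 9 did without homo replicate 4 or with the mean of other neuronal genes as a covariate. Neurofilaments are assembled from Nefl, Nefm, Nefh and Ina, the internexin of neurons. Nefl averaged 49.8 ± 18.6 TPM in hete against 55.3 ± 21.5 in homo, Nefm 56.8 ± 17.6 and 59.3 ± 25.7, and Ina 10.1 ± 3.68 and 12.4 ± 5.42 (SD, n = 4 each). Each of these differences was smaller than the SD within either group. Stmn2 (ENSMUSG00000027500), a microtubule regulator of growing axons, had 15.22, 36.63, 27.81 and 14.64 TPM in hete and 30.8, 26.23, 22.67 and 43.38 TPM in homo, with the largest log2 fold change of the 26 (0.43, SE 0.33; limma-trend, adjusted p = 0.888). Its relative Stmn3 stood at 0.02 (SE 0.17). Gap43 had 14.16, 20.18, 18.09 and 13.35 TPM in hete and 16.67, 22.16, 21.97 and 20.26 TPM in homo (0.30 on the log2 scale, SE 0.14; adjusted p = 0.849 by limma-trend). Hete replicates 1 and 4 lay below every homo library for Gap43, and hete replicates 2 and 3 lay among them.

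Prph, the filament of type II neurons, was low, with 1.3, 2.21, 1.77 and 0.64 TPM in hete and 1.06, 3.03, 1.07 and 1.28 TPM in homo. Its lowest library was hete replicate 4 and its highest homo replicate 2. No other neuron-restricted member had these extremes, but the broadly expressed Gap43 did. Th, the dopamine synthesis enzyme and another gene used for type II neurons, stayed under the filter with 0.37 to 0.83 TPM in hete and 0.55 to 1.22 TPM in homo. These levels leave both subtype markers with little signal.

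Of the vesicle members, Syn1 and Syp encode proteins of the synaptic vesicle coat and membrane. Syn1 averaged 4.33 ± 1.35 TPM in hete against 5.33 ± 2.38 in homo, and Syp 15.2 ± 5.62 against 16.9 ± 6.99 (SD, n = 4 each). Their log2 fold changes were 0.22 (SE 0.27) and 0.15 (SE 0.34). Syt2 (ENSMUSG00000026452), the fast calcium sensor of many brainstem and sensory synapses, had 5.14, 6.93, 8.25 and 6.23 TPM in hete and 6.18, 6.47, 1.87 and 13.34 TPM in homo. Its homo libraries held both the lowest and the highest of the 8 values, 7.13-fold apart. The log2 fold change was -0.14 (SE 0.43; adjusted p = 0.978 by limma-trend) and stood at 0.28 without homo replicate 3. Syt1 and Syt2 thus had the smallest and nearly the largest standard error of the set. Snap25 stood at 0.16 (SE 0.35) and Vamp1 at 0.00 (SE 0.16) on the log2 scale.

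The RNA-binding members are the neuronal Hu proteins Elavl3 and Elavl4 and the splicing factor Rbfox3, whose protein is the NeuN antigen. Elavl3 averaged 2.005 ± 0.79 TPM in hete against 2.64 ± 1.07 in homo, and Elavl4 6.23 ± 2.79 and 8.07 ± 4.13 (SD, n = 4 each). Rbfox3 had 3.07, 5.37, 4.29 and 4.12 TPM in hete and 2.83, 3.34, 3.15 and 7.16 TPM in homo. Its highest value was in homo replicate 4, with the other 3 homo libraries below the median of hete. It was the only 1 of the 17 neuron-restricted members with a log2 fold change below 0 (-0.08, SE 0.24; limma-trend, adjusted p = 0.978).

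Among transcription factors, Gata3 (ENSMUSG00000015619), which acts in hair cells, supporting cells and auditory neurons, had 122.1, 124.72, 145.39 and 176.91 TPM in hete and 146.15, 151.73, 135.06 and 151.17 TPM in homo. The hete libraries held both ends of its range, and its difference on the log2 scale was 0.05 (SE 0.11, 95% interval -0.20 to 0.30). Pou4f1, a sensory neuron factor, had 0.21, 1.18, 1.04 and 0.71 TPM in hete and 1.44, 0.7, 0.37 and 1.93 TPM in homo. It missed the filter with a mean of 0.95 TPM and has no test, but its lowest and highest libraries were those of Tubb3. Neurod1, which drives the birth of these neurons in the embryo, was listed at 0 in 4 libraries and at 0.04 to 0.1 TPM in the others. Runx1 averaged 2.11 ± 0.46 TPM in hete against 2.43 ± 0.50 in homo (SD, n = 4 each).

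Of the subtype and surface genes, Lypd1 averaged 20.2 ± 5.66 TPM in hete against 20.005 ± 4.00 in homo (SD, n = 4 each; 0.01 on the log2 scale, SE 0.21), with hete replicate 1 lowest and hete replicate 2 highest. Grm8, a metabotropic glutamate receptor, missed the filter at 0.29 to 1.42 TPM in hete and 0.36 to 1.18 TPM in homo. Uchl1, a neuronal ubiquitin hydrolase, was the most abundant member by mean TPM (176), ahead of Gata3 (144) and Stmn3 (94.8). Uchl1 spread 1.56-fold over the 8 libraries, against 3.16-fold for Tubb3. Scn1a and Scn8a encode voltage-gated sodium channels of axons. Scn8a had 4.14, 4.31, 4.53 and 6.25 TPM in hete and 5.54, 5.78, 5.06 and 7.47 TPM in homo, so hete replicate 4 was the 1 hete library among the homo values (0.26 on the log2 scale, SE 0.15; adjusted p = 0.87 by limma-trend). Scn1a, at 1.79 ± 0.92 and 1.88 ± 0.95 TPM, overlapped throughout.

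By class, 16 of 17 neuron-restricted members stood above 0 (median log2 fold change 0.10), as did 5 of 6 tested members shared with hair cells (0.10) and all 3 broadly expressed ones (0.14). Of 46 tested other neuronal genes 33 stood above 0, with a median of 0.11 and none called. The members of that list with the smallest p were the neurotrophin receptor genes Ntrk3 (0.43, SE 0.19) and Ntrk2 (-0.17, SE 0.10), the retinoid receptor gene Rxrg (0.25, SE 0.14) and the granin gene Scg2 (-0.19, SE 0.11). The direction of the neuron-restricted members rested on single libraries. Without hete replicate 1 their median was -0.04, with 8 of 18 above 0, and without homo replicate 4 it was -0.03, with 6 of 17 above 0. It was 0.31 without homo replicate 3. The other neuronal genes moved likewise, to -0.03, -0.01 and 0.22. Glia markers stood above 0 for 15 of 19, and their summed level was 1641 to 2214 TPM in hete and 1635 to 2397 TPM in homo. The sum was lowest in homo replicate 3, just under hete replicate 1, and highest in homo replicate 4. Their part in the medians was not tested.

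**Figure D4:**
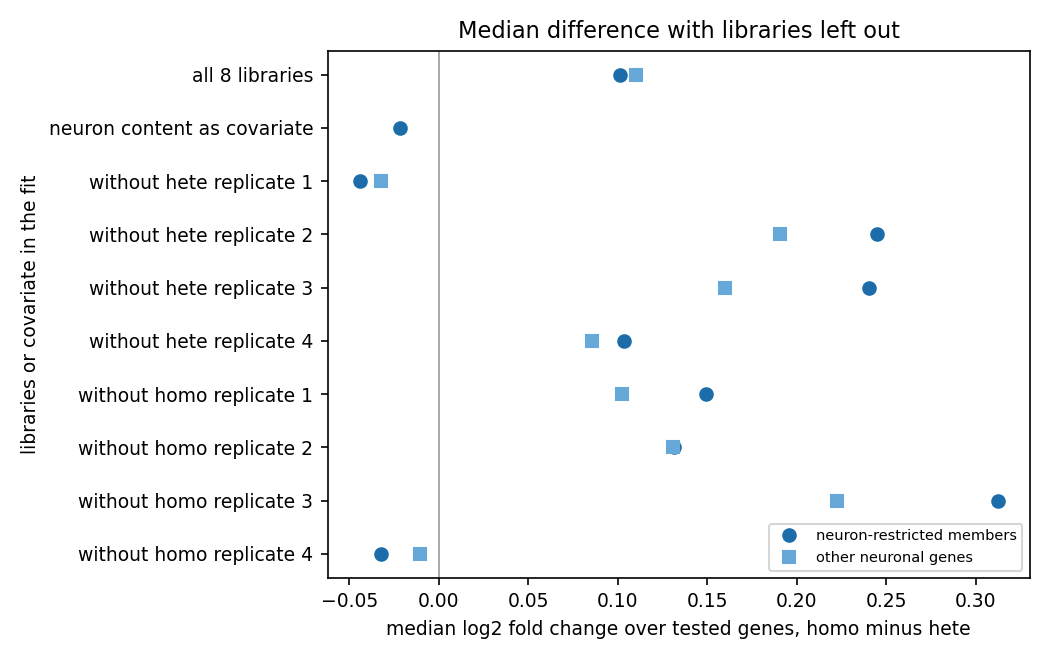
Points give the median log2 fold change, homo minus hete, over the neuron-restricted members and over the other neuronal genes, with all 8 libraries and without each library in turn; the fit with the mean of the other neuronal genes as covariate is shown for the neuron-restricted members alone. The medians lie below 0 without hete replicate 1 (-0.04 and -0.03) or homo replicate 4 (-0.03 and -0.01), and above 0 in every other leave-out.

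A second fit across all 17811 genes added the mean of the 46 other neuronal genes in each library as a covariate, which compares the groups at an equal level of those genes. The standard error became smaller for 22 of 26 members, and fell under 50% of its former size for 11. For Tubb3 the difference on the log2 scale was -0.08 (SE 0.08, 95% interval -0.26 to 0.10), where it had been 0.10 (SE 0.35, 95% interval -0.72 to 0.93). For Nefl it was -0.02 (SE 0.07, 95% interval -0.18 to 0.14), and for Snap25 -0.02 (SE 0.10, 95% interval -0.25 to 0.20). The median of the neuron-restricted members was -0.02, with 8 of 17 above 0. Syt1 stood at 0.30 (SE 0.07, 95% interval 0.13 to 0.46; limma-trend, adjusted p = 0.683) and Isl1 at 0.26 (SE 0.07, 95% interval 0.10 to 0.43; adjusted p = 0.761). No member was called in this fit either, against 0.0112% of all tested genes, while Syt1 and Isl1 were the 2 of 26 with an unadjusted p under 0.05, where 3.14% of all tested genes were higher at that p. The covariate comes from the same libraries as the members, so in this fit a shared change of neuronal genes cannot be told apart from a difference in neuron number.

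**Figure D5:**
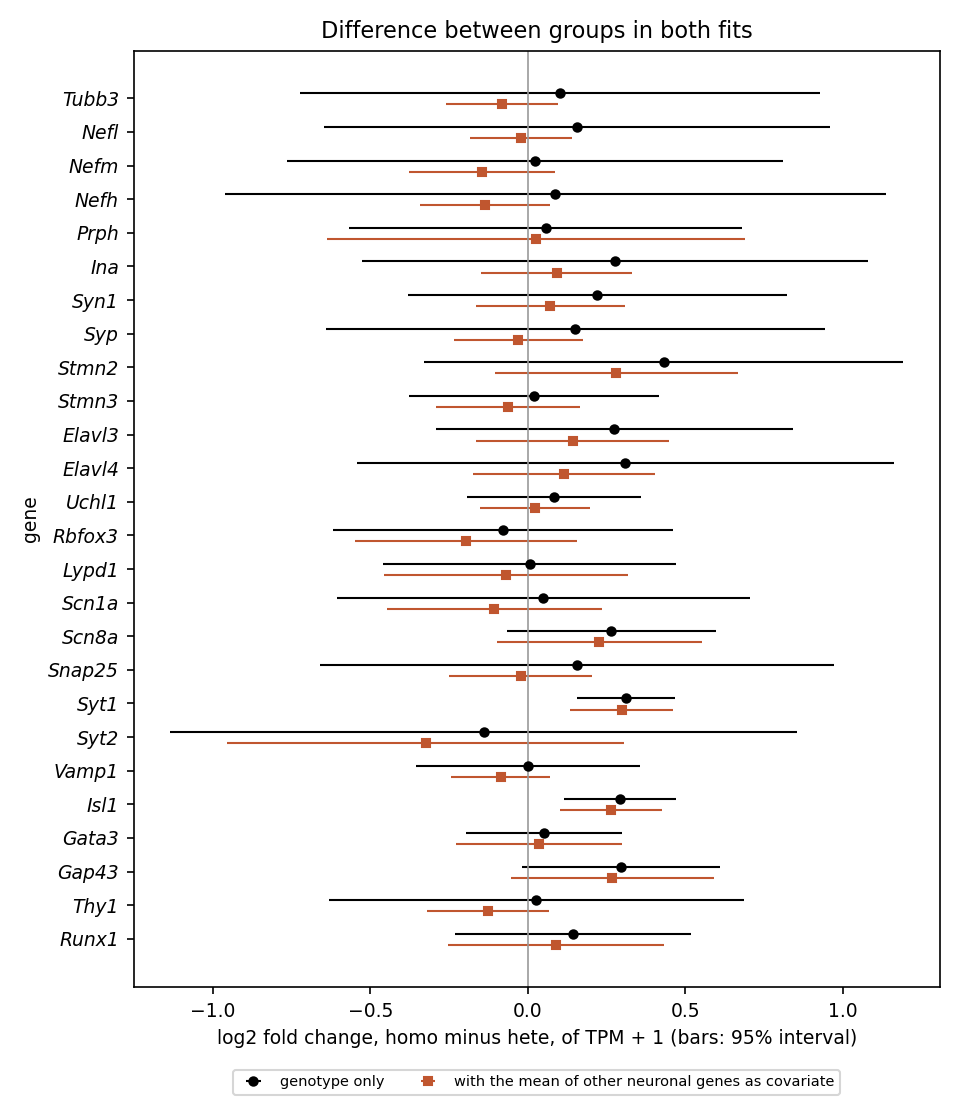
Points and bars give the log2 fold change, homo minus hete, of TPM + 1 with its 95% interval for each of the 26 tested members, from the fit on genotype alone (black circles) and with the mean of other neuronal genes as covariate (orange squares). Intervals of Tubb3, Nefl and Snap25 narrow around 0 (for Tubb3, SE 0.35 to 0.08), while those of Prph, Gap43, Syt1 and Gata3 do not narrow. Intervals of Syt1 and Isl1 lie above 0 in both fits, though neither passed the adjusted threshold.

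The genes most like the neuron-restricted members were taken from outside all lists, by Pearson's r of log2(TPM + 1) over the 8 libraries after each group mean had been subtracted. The 5 with the highest r were Ctnna2, a neuronal catenin (0.992), Atcay, which encodes caytaxin (0.991), Pvalb, the calcium buffer parvalbumin (0.986), Myo16, an unconventional myosin (0.985), and Tagln3, a neuronal transgelin (0.984). Pvalb had 48.13, 92.44, 73.19 and 60.87 TPM in hete and 63.53, 69.42, 50.03 and 100.06 TPM in homo, again lowest in hete replicate 1 and highest in homo replicate 4. These genes were picked as the highest r of all tested genes, and the values are a description.

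Dnajc17, the targeted gene, had 22.06 to 26.51 TPM in hete and 18.04 to 31.08 TPM in homo (0.07 on the log2 scale, SE 0.15; adjusted p = 0.969 by limma-trend), so the gene-level value did not separate the groups. Depth is unknown, because TPM keep no read numbers. Markers of central nervous tissue were sparse: 7 of 15 passed the filter, 6 were listed at 0 in at least 1 library, and their sum was 61.4 to 86.8 TPM in hete and 70.9 to 89.0 TPM in homo. Some were uneven between libraries. Gfap had 7.12 TPM in hete replicate 2, against 1.25 to 1.64 TPM in the other hete libraries and 1.21 to 5.81 TPM in homo. Olig1 had 6.55 TPM in hete replicate 2, against 0 to 0.2 TPM in the other hete libraries and 0.26 to 3.03 TPM in homo. Olig2, which missed the filter, had 2.13 TPM there, against 0 to 0.04 TPM in the other hete libraries and 0.04 to 0.9 TPM in homo. The source of these transcripts was not tested.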

How the data were processed

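Polyadenylated RNA of the mouse basilar membrane was measured in 8 libraries, 4 per group, grouped by sample title. The authors deposited TPM per gene, rounded to 2 decimals. Each library adds up to 1000000 within 1, so read depth is unknown and counts were not tested. Fastp, HISAT2, StringTie, RSEM, DESeq2 and GRCm39 are named without roles, per the submitters' processing notes. The deposited tables of splicing events and of enriched terms were not used here.

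Genes averaging 1 TPM or more were fitted as log2(TPM + 1) with limma 3.58.1 in R 4.3.3 (trend and robust eBayes, genotype only) and adjusted by Benjamini-Hochberg over all 17811 genes. Fold changes on this scale understate changes of low genes. The fits with and without the covariate were tried on simulated data whose noise was drawn separately for each gene. Those data lack the shared variation of neuronal genes, and the correlations were not simulated. The members and lists were chosen with earlier results of these data known. Named are all 30 members, up to 4 genes of another list by smallest p, the 5 genes most alike, and Dnajc17. Gad1 and the other marker genes fall under the same rule, except S100a1, named for its weight in a sum, and Olig1 and Olig2, named for their unevenness. Lists of 48 other neuronal genes, 20 hair cell, 20 glia, 15 supporting cell and 15 central nervous tissue markers were used. The alternatives were quantile normalization, a rescaling over protein-coding nuclear genes, 2 filters, a pseudocount of 0.1, eBayes without the robust option, the replicate number as a block, the neuronal covariate, and each library left out. Promoter windows came from RefSeq on GRCm38.p6. Python 3.11.15 with matplotlib 3.10.9 made the figures.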

Additional observations from a re-analysis of the deposited data

Results flagged for a closer look

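In 76 groups of 4 libraries (30 members and 8 list means, each in hete and in homo), a library was checked for standing apart from the other 3 by Dixon's criterion, which chance meets in about 1 of 20 groups. It was met in 3. Prph had 3.03 TPM in homo replicate 2, against 1.06 to 1.28 TPM in the other homo libraries. Rbfox3 had 7.16 TPM in homo replicate 4, against 2.83 to 3.34 TPM in the other homo libraries. The mean log2(TPM + 1) of 7 central nervous tissue markers was 3.31 in hete replicate 2, against 2.48 to 2.56 in the other hete libraries.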

How the results depend on the processing

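No member was called under any of the 16 alternatives, and over all of them the adjusted p of Syt1 ran from 0.435 to 0.885 and that of Isl1 from 0.584 to 0.885. Syt1, Isl1, Gap43, Stmn2, Scn8a, Elavl3, Elavl4 and Runx1, 8 of the 26 tested members, kept the direction of their log2 fold change wherever they were tested. The others changed sign at least once. With the neuronal covariate the log2 fold changes that changed sign were Tubb3 -0.082, Nefl -0.022, Nefm -0.15, Nefh -0.14, Syp -0.031, Stmn3 -0.063, Lypd1 -0.068, Scn1a -0.11, Snap25 -0.023, Vamp1 -0.086, Thy1 -0.13. With quantile normalization, which moved the median of all genes from 0.02 to 0.00, they were Nefm -0.0039, Stmn3 -0.010, Lypd1 -0.011, Vamp1 -0.025. With the rescaling over protein-coding nuclear genes Vamp1 stood at -0.0047. With libraries left out in turn, the lowest and highest log2 fold changes of the members that changed sign were Gata3 -0.016 to 0.16, Ina -0.020 to 0.45, Lypd1 -0.17 to 0.14, Nefh -0.25 to 0.34, Nefl -0.078 to 0.35, Nefm -0.23 to 0.23, Prph -0.17 to 0.19, Rbfox3 -0.33 to 0.036, Scn1a -0.15 to 0.22, Snap25 -0.12 to 0.34, Stmn3 -0.14 to 0.12, Syn1 -0.012 to 0.38, Syp -0.13 to 0.29, Syt2 -0.50 to 0.28, Thy1 -0.20 to 0.20, Tubb3 -0.17 to 0.30, Uchl1 -0.032 to 0.18, Vamp1 -0.13 to 0.080. Without hete replicate 1 or without homo replicate 4, 13 of 26 changed sign in each case.

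Of all genes, 2 were called with the settings of the report, 1 with no filter on low values, and 1 to 5 with libraries left out (5 without hete replicate 3, 4 without homo replicate 1 or 4, 3 without hete replicate 2 or 4, and 1 without hete replicate 1 or homo replicate 2 or 3). With the replicate number as a block 1 gene was called. That number does not pair the libraries here: deviations from the group means correlated between same-numbered libraries at -0.08, -0.03, 0.05 and 0.01, and the block changed no call of a member. Tubb3 spread 2.74-fold within hete and 2.47-fold within homo, and the 95% interval of its log2 fold change ran from -0.72 to 0.93, or from -0.26 to 0.10 with the covariate.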

Other observations

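Gad1, the enzyme that makes GABA and the gene with the smallest p among the central nervous tissue markers, had 5.54, 5.31, 6.07 and 4.35 TPM across the hete libraries and 6.31, 9.95, 8.65 and 11.05 TPM across the homo libraries. The groups did not overlap (0.64 on the log2 scale, SE 0.16; adjusted p = 0.581 by limma-trend), and Gad1 did not pass the threshold over all genes tested. The other 6 of the 7 tested genes of that list overlapped between the groups, where 2.58% of all tested genes had every homo value above every hete value. Among glia markers the smallest p belonged to Egr2, a factor of myelinating Schwann cells, with 2.96, 6.18, 5.88 and 4.65 TPM in hete and 9.67, 7.03, 4.77 and 11.48 TPM in homo (0.62 on the log2 scale, SE 0.26; adjusted p = 0.814 by limma-trend). With the neuronal covariate it stood at 0.48 (SE 0.13; adjusted p = 0.761 by limma-trend). Ntrk3, the receptor of neurotrophin 3 on spiral ganglion neurons, had 10.96 to 15.79 TPM in hete and 15.06 to 27.26 TPM in homo, and stood at 0.43 (SE 0.19; adjusted p = 0.815 by limma-trend), or at 0.34 (SE 0.11; adjusted p = 0.797) with the same covariate. Neither gene passed the threshold in either fit. Hair cell markers stood below 0 for 17 of 19 (median log2 fold change -0.15) and supporting cell markers above 0 for 11 of 15 (0.13), where 56.3% of all tested genes stood above 0. At an unadjusted p under 0.05, 5 of the 19 hair cell markers were lower, against 2.49% of all tested genes, and 5 of the 15 supporting cell markers were higher, against 3.56%. In 4 of the 15 supporting cell markers every homo value lay above every hete value, against 2.58%, and in 1 of the 19 hair cell markers every one lay below, against 1.41%. None of either list was called by limma-trend after adjustment, against 0.0112% of all tested genes.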
